A study of Homo sapiens with 10 samples.

Results

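The response of T47D breast cancer cells to the synthetic progestin R5020 was measured in cells induced to make SUMO-deficient K388R progesterone receptor B (PR-B). Of the 10 arrays of the inducible-receptor experiment, 4 belong to the iKR line, which carries the K388R receptor. The response is the difference between 2 of these 4 arrays, 1 from cells given AP21967 and R5020 and 1 from cells given AP21967 and ethanol vehicle. The other 2 iKR arrays came from cells without AP21967, given vehicle or R5020, and gave the yardstick for differences between arrays. All of the lines are T47D cells without PR of their own that carry a vector switched on by the dimerizer AP21967, namely an empty vector (iEV), wild-type PR-B (iWT) or K388R PR-B (iKR). The lines are clones, so a property of 1 clone cannot be told apart from a property of its receptor. Cells were starved of serum, received AP21967 for 2 days at 1 nM by the study's methods, and R5020 at 10 nM or vehicle for 6 h (the labels' notation, read literally, gives 10 nM and 100 nM). Each condition was measured on 1 Affymetrix U133A 2.0 array, so every value below is a log2 difference between single arrays with no replicate error, and no test was possible.

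PR-B is a ligand-activated transcription factor of the nuclear receptor family. On binding progestin it dimerizes, binds hormone response elements in DNA and recruits coregulators that raise or lower transcription of the nearby genes. SUMO, a small protein that cells attach to lysines, is attached to a lysine in the amino-terminal part of PR, and replacing this lysine by arginine (K388R) prevents it. SUMO attached to steroid receptors is known mostly for restraining transcription.

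The PGR transcript itself was examined first, since it checks the lines. The PGR probe set was at 6.25 and 6.17 (log2) on the iEV arrays without and with AP21967. In iKR it was at 10.65 (vehicle) and 11.43 (R5020) without AP21967, and at 12.08 (vehicle) and 11.38 (R5020) with it. Every iKR array was therefore far above both iEV arrays, those without AP21967 included. The R5020 differences between the arrays without AP21967 may thus hold a response to receptor made without the inducer as well as noise, which was not tested. AP21967 alone gave a difference of 1.43 for PGR, and this was the only gene of 10830 that was past 2.0 fold between the vehicle arrays with and without the inducer. The R5020 difference of PGR was -0.71 with AP21967 and 0.78 without it, and its level with both agents lay within the range of the other 3 arrays.

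The cells carried the markers of luminal breast epithelium. All 8 luminal markers, including KRT8, KRT18, KRT19, EPCAM and GATA3, were at 8.68 or above on every iKR array. Of 4 basal and myoepithelial markers, none reached 8 on all 4 arrays (5.71 to 7.95), and of 13 fibroblast, endothelial and leukocyte markers 2 did, COL1A1 (9.65 to 9.76) and DCN (8.02 to 8.08). Over the 4 arrays the log2 summed signal was 16.7 to 16.9 for the luminal markers, 9.18 to 9.30 for the basal ones and 10.998 to 11.039 for the others. The differences between 3′ and 5′ control probe sets of GAPDH and ACTB, a sign of RNA quality, were between -0.14 and 0.19 on the iKR arrays.

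With the K388R receptor induced, R5020 was accompanied by many more and larger differences than without the inducer. Genes were compared if the highest of the 4 iKR arrays reached log2 6, which 10830 of 11963 genes did. With AP21967, 109 genes were higher with R5020 by over 2.0 fold (1.01% of the genes compared) and 53 were lower (0.489%). Between the arrays without AP21967, 1 gene was higher (0.00923%) and 0 were lower at that size, so the pair without inducer gave almost none. The 1 gene was HMGCS1, an enzyme of cholesterol synthesis, at 9.38 and 10.41 without AP21967 and at 10.32 on both arrays with it. Past 1.5 fold the counts with AP21967 were 328 higher (3.03%) and 344 lower (3.18%), against 8 (0.0739%) and 1 (0.00923%) without it. At 3.0 fold 32 genes were higher (0.295%) and 4 lower (0.0369%), and at 4 fold 15 were higher (0.139%) and 1, AMIGO2, was lower (0.00923%). The large differences were thus mostly on the higher side, whereas at 1.5 fold the 2 directions were about equal in number. In bulk RNA, fewer cells with a transcript and less of it per cell cannot be told apart.

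The spread told the same. The standard deviation of the R5020 differences over all genes was 0.314 with AP21967 and 0.118 without it, with medians of 0.03 and -0.003. The 99th percentile of the size of the differences without AP21967, taken in 10 classes of expression level, was between 0.29 and 0.40. With AP21967, 807 genes were higher (7.45%) and 893 lower (8.25%) by more than the limit of their class. Without it the counts were 51 (0.471%) and 59 (0.545%), which follow from the limit having been set on that same pair. All 109 higher and all 53 lower genes past 2.0 fold also lay outside the other 3 iKR arrays by more than the distance between the 2 arrays without AP21967, as did 327 of 328 and 339 of 344 past 1.5 fold. Over all genes 28.5% lay above the other 3 arrays and 20.3% below them by that much. The genes were chosen on the same array, which nearly fixes these counts, and nothing is read from them.

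**Figure D1:**
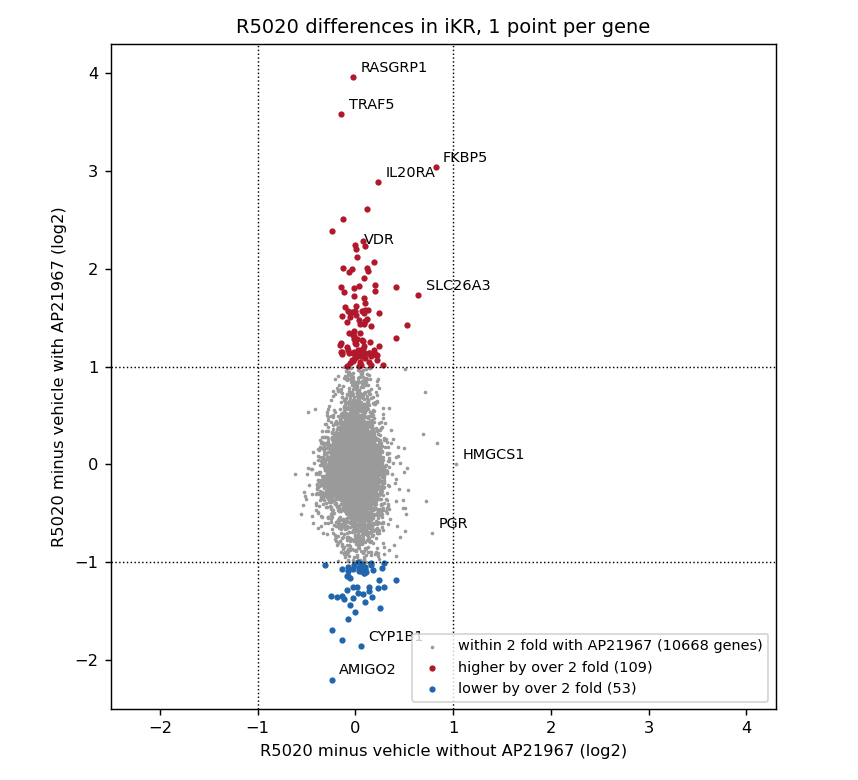
R5020 minus vehicle differences (log2) in the iKR line for 10830 genes, without AP21967 on the x axis and with AP21967 on the y axis, from 1 array per condition. Dotted lines mark 2.0 fold; red points (109 genes) and blue points (53 genes) lie past it with AP21967, and only HMGCS1 lies past it without AP21967.

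Most of these genes differed little with R5020 when the inducer was left out. Among the 109 higher genes the R5020 differences without AP21967 were between -0.24 and 0.82, with a median of 0.04, and among the 53 lower genes between -0.31 and 0.41, again with a median of 0.04. In 5 of the 109, FKBP5, SLC26A3, SGK1, ATG12 and CBLL1, the difference without AP21967 had the same sign and was past the 99th percentile of its class (4.59%, against 69 of 10830, or 0.637%, over all genes). FKBP5, a co-chaperone of steroid receptors and a classic progestin target, was higher by 0.82 without the inducer and by 3.04 with it. SLC26A3, an anion exchanger, had the smallest ratio of the 2 differences (0.65 and 1.73, a ratio of 2.68). Both rest on dim signals, since SLC26A3 reached log2 6 only with both agents (4.74 with AP21967 and vehicle, 6.47 with both). None of the 53 lower genes was past that limit in the same direction.

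The gene with the largest difference was RASGRP1, an exchange factor that activates RAS. It was at 5.10 (vehicle) and 5.07 (R5020) without AP21967, at 5.20 with AP21967 and vehicle, and at 9.16 with AP21967 and R5020, a difference of 3.96. The first 3 arrays lay under log2 6, so the size rests on dim signals, and with these set to log2 6 the difference would be 3.16, below that of TRAF5. TRAF5, an adaptor of TNF receptors, was at 6.42, 6.27 and 6.52 on the first 3 arrays and at 10.10 with both agents (difference 3.58). In both genes the first 3 arrays lay close together.

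FKBP5 was at 8.04 and 8.86 without AP21967 (vehicle and R5020), at 7.88 with AP21967 and vehicle and at 10.92 with both. Here R5020 without AP21967 stood above both vehicle arrays, as described above. IL20RA, a cytokine receptor subunit, was at 7.03, 7.27, 7.01 and 9.89 in the same order (difference 2.89). F3, tissue factor, the initiator of blood coagulation, was at 7.84, 7.96, 7.96 and 10.57 (difference 2.61). ADGRA2, an adhesion receptor, was at 8.01, 7.88, 8.02 and 10.53 (difference 2.51).

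NDRG1, a gene known from hypoxia and differentiation, had a difference of 2.39 (9.53, 9.29, 9.33 and 11.71 over the 4 arrays). PDK4, a kinase that inhibits pyruvate dehydrogenase and so spares glucose, had a difference of 2.25 and was close to the bottom of the range before it (5.80, 5.80, 5.74 and 7.99). Both genes were thus near-constant over the 3 arrays that lacked either agent. SLC39A14, a zinc and iron importer, was higher by 2.12, TIPARP, a mono-ADP-ribosyltransferase induced by the aryl hydrocarbon receptor, by 2.07, and the potassium channel subunit gene KCNG1 by 2.23. The microtubule-binding protein gene MAP1A and the orphan receptor gene GPR161 each had a difference of 2.01, though a dimmer KCNG1 probe set gave 0.44 and those of GPR161 0.16 and 1.39. Of the 109, 6 genes (RASGRP1, PDK4, SLC26A3, BDNF, ABCG5 and SLC15A2) reached log2 6 only on the array with both agents and so entered the comparison through it. With levels under log2 6 set to it, SLC26A3 (0.47) and SLC15A2 (0.71) would not be past 2.0 fold. The others would be at 1.08 to 3.16.

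The lower genes were led by AMIGO2, an adhesion molecule of the plasma membrane. It was at 9.23 and 8.99 without AP21967, at 9.12 with AP21967 and vehicle, and at 6.92 with AP21967 and R5020, a difference of -2.20. GRAMD1C, a sterol transfer protein, was at 7.87, 7.73, 8.03 and 6.23 in the same order (difference -1.80), and POU2F3, a transcription factor of epithelial tuft cells, at 7.99, 7.75, 7.93 and 6.24 (difference -1.70). In each of the 3 genes the array with both agents was the low one and the other 3 lay close together.

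PLK2, a stress-induced kinase, had a difference of -1.58, VAV3, a signaling adaptor, of -1.44, HDAC9, a histone deacetylase, of -1.40, and IRS1, the docking protein of the insulin and IGF1 receptors, of -1.35. RP2 (-1.47), ZNF175 (-1.36), MEGF9 (-1.36), TNS1 (-1.35) and STON1 (-1.34) completed the 15 lowest together with CYP1B1, CYP1A1 and SOX2, which are described with their pathways. The lower differences were smaller in size than the higher ones, with a median of -1.17 among the 53 genes against 1.34 among the 109.

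**Figure D2:**
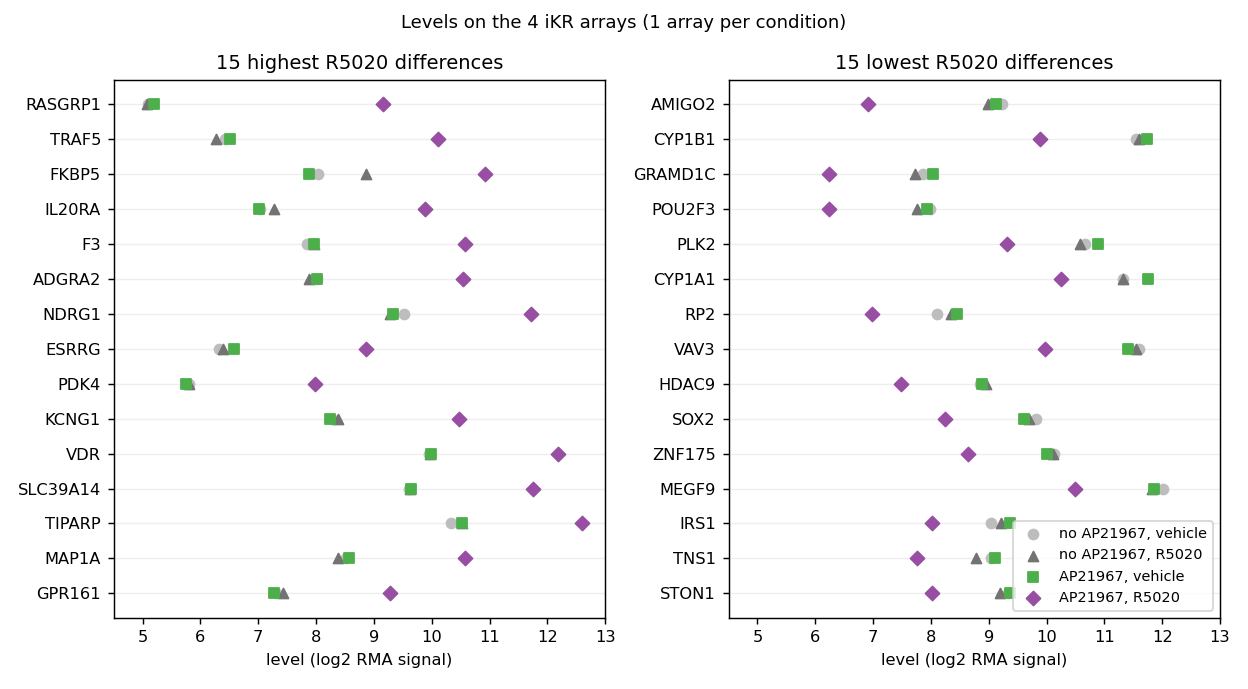
Levels (log2 RMA signal, x axis) of the 15 genes with the highest (left) and the 15 with the lowest (right) R5020 difference in iKR with AP21967, 1 symbol per array. The genes were chosen on the array with AP21967 and R5020 (purple diamonds), so its distance from the others follows from the choice. In FKBP5 the array with R5020 alone (8.86) lies between.

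The lists below are to be read against 3.03% of all genes higher and 3.18% lower by over 1.5 fold, so that 1 member in a list of 20 to 30 genes is near this background and is no result about the list. The classic progestin and glucocorticoid response genes were the list with the most higher members. Of 28 genes listed, 25 were compared, 13 were higher by over 1.5 fold and 0 lower, and the list's median difference was 0.64 against 0.03 over all genes. FKBP5, TIPARP, HSD11B2 (1.90), which inactivates glucocorticoids, SGK1 (1.81), a kinase that regulates ion transport, CEBPD (1.61) and ZBTB16 (1.32), both transcription factors, were past 2.0 fold. HSD11B2 was at 7.26, 7.35, 7.50 and 9.40 and SGK1 at 8.81, 9.22, 8.89 and 10.70 over the 4 arrays, so SGK1, like FKBP5, was somewhat higher with R5020 alone. MYC, the growth regulator, was at 7.35, 7.17, 7.25 and 8.01 (difference 0.76). The prolactin receptor gene PRLR (0.64) and CEBPB (0.72) were also past 1.5 fold.

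The list of luminal and lineage transcription factors had the most lower members. It also holds SOX2 and ID and MSX factors, which are not specific to the luminal lineage. Of 25 compared, 13 were lower by over 1.5 fold and 1 was higher, and the median was -0.66. SOX2, a stem cell factor, was at 9.81, 9.69, 9.62 and 8.24 (difference -1.38). FOXA1, the pioneer factor that opens chromatin for the estrogen receptor, was at 11.15, 11.12, 11.11 and 9.85 (difference -1.25), and KLF5, a factor of epithelial proliferation, at 11.26, 11.18, 11.06 and 9.92 (difference -1.14). For these 3 genes the distance between the other 3 arrays was far smaller than the difference. A dimmer KLF5 probe set gave a larger difference, -2.29. EHF, an epithelial ETS factor, was at 11.62, 11.72, 11.42 and 10.37 (difference -1.05). Also lower were ID2 (-0.95), TFAP2C (-0.92), XBP1 (-0.90), TFAP2A (-0.82), ID1 (-0.82), ELF5 (-0.81), ELF3 (-0.76) and SPDEF (-0.66). Apart from XBP1, further probe sets of these genes were not examined gene by gene.

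ESR1, which encodes estrogen receptor alpha, was less clear-cut. It was at 10.10 and 10.19 without AP21967, at 9.65 with AP21967 and vehicle, and at 8.68 with both agents, so that the AP21967 array with vehicle already lay below the pair without inducer. The difference was -0.97 on the brightest ESR1 probe set, while the 8 dimmer ones gave -0.30 to 0.17. The exception among the luminal and lineage factors was MSX2, a homeobox factor of mammary development. MSX2 was at 9.10, 9.09, 8.998 and 10.24 (difference 1.25), and a second probe set gave 0.73.

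The aryl hydrocarbon receptor (AHR) pathway, through which cells respond to dioxins and plant compounds, was split. Of 9 genes compared, 4 were lower and 2 higher by over 1.5 fold. CYP1B1, a cytochrome P450 that hydroxylates estrogens and AHR ligands, was at 11.54, 11.60, 11.74 and 9.88 (difference -1.86), and CYP1A1, another AHR-induced P450, at 11.33, 11.33, 11.76 and 10.25 (difference -1.51). AHR itself was at 9.43, 9.49, 9.77 and 8.72 (difference -1.05) and CYP1A2 at 9.95, 9.90, 10.19 and 9.34 (difference -0.85). In these 4 genes the AP21967 array with vehicle was the highest of the 4 and the array with both agents the lowest. TIPARP, which is known to repress AHR, was at 10.34, 10.53, 10.52 and 12.59, and ARNT2, a partner subunit of the same family, at 7.33, 7.40, 7.27 and 8.06 (difference 0.80). The other CYP1B1 probe sets gave -0.94, -1.18 and -0.39.

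**Figure D3:**
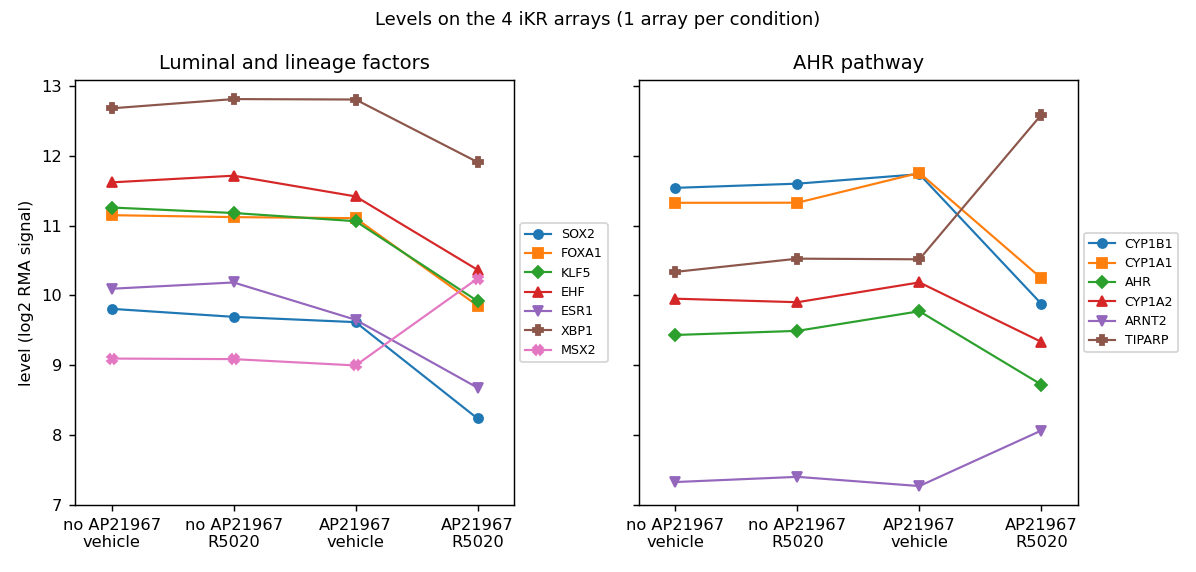
Levels (log2 RMA signal, y axis) on the 4 iKR arrays (x axis, 1 array per condition) of 7 luminal and lineage transcription factors (left) and 6 genes of the AHR pathway (right); lines only join the values of 1 gene. On the array with AP21967 and R5020 the factors other than MSX2, and CYP1B1, CYP1A1, AHR and CYP1A2, were at their lowest, while MSX2, TIPARP and ARNT2 were at their highest.

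Nuclear receptors other than PGR went both ways. Of 29 compared, 2 were higher and 4 lower by over 1.5 fold, PGR among the latter, and the median was -0.04. ESRRG, an orphan receptor that regulates oxidative metabolism, was at 6.31, 6.39, 6.58 and 8.87 (difference 2.29), and its second probe set gave 3.67. VDR, the vitamin D receptor, was at 9.95, 9.96, 9.99 and 12.19 (difference 2.20), with 2.66, 1.78 and 0.75 on its 3 other probe sets. RXRA, the heterodimer partner of VDR and others, was at 11.31, 11.19, 11.16 and 10.42 (difference -0.75), so it was lower where VDR was higher. NR2F1 was at 6.18, 6.04, 5.99 and 5.28 (difference -0.71). Both arrays of that difference lay under log2 6, so its size rests on dim signals. Of 16 genes for SUMO enzymes and receptor coregulators, the coactivator gene NCOA2 (-0.76) was lower and none was higher, with a median of 0.01. The 3 other NCOA2 probe sets gave -0.40 to -0.16, and 1 of 16 is near the share over all genes.

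Among enzymes that make or degrade steroids, HSD11B2 (1.90), HSD17B2 (1.21), which inactivates estradiol, and HSD17B1 (0.93), which makes it, were higher, and steroid sulfatase, STS (-0.73), was lower, out of 19 compared. Of 16 estrogen receptor targets, CA12 (1.83), a carbonic anhydrase, and CXCL12 (0.62) were higher and MYB (-0.76) and XBP1 lower, with a median of -0.12.

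In TNF receptor and NF-kB signaling 6 of 22 genes compared were higher and 2 lower, with a median of 0.14. Besides TRAF5 these were the inhibitors of NF-kB NFKBIE (1.07), TNFAIP3 (0.99) and NFKBIA (0.72), and the death receptors TNFRSF21 (1.02) and TNFRSF10B (0.98). The ligand TNFSF10 (-0.69) and the receptor TNFRSF11A (-0.72) were lower. TNFSF10 was dim, at 6.38 with AP21967 and vehicle and at 5.70, under log2 6, with both agents. Of 24 cytokine receptor and JAK-STAT genes, 4 were higher, IL20RA, the kinase genes PIM2 (1.72) and JAK2 (1.17), and PRLR, and IL6ST, the shared receptor subunit of the IL6 family, was lower (-0.73 on the brightest probe set, -0.29 to 0.21 on 4 others).

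RAS and MAPK regulators had 3 higher and 3 lower genes of 23. RASSF2, a RAS-binding tumor suppressor, was at 7.21, 7.15, 7.26 and 9.23 (difference 1.97), and RGS2, which speeds the shut-off of G protein signaling, at 6.44, 6.53, 6.62 and 8.09 (difference 1.47). Both were nearly level over the 3 other arrays. Of the inhibitors of the pathway, SPRED2 (-0.67), RASAL2 (-0.65) and DUSP5 (-0.63) were lower, while SPRY1 (-0.31), SPRY2 (-0.31), SPRY4 (-0.02), DUSP1 (0.21), DUSP2 (0.46), DUSP4 (0.34), DUSP6 (-0.42) and DUSP10 (-0.38) were within 1.5 fold. In insulin and IGF signaling, with 21 genes compared, GRB10 (1.56), an adaptor that inhibits the insulin receptor, FOXO1 (1.42), a factor that insulin inactivates, and DDIT4 (1.14), an inhibitor of mTOR, were higher. IRS1 was at 9.04, 9.21, 9.36 and 8.01 (difference -1.35), and PIK3R3 (-0.998), a subunit of PI3 kinase, and IGFBP5 (-0.61) were lower too. The IGFBP5 difference without AP21967 was -0.13 on that probe set. Dimmer IGFBP5 probe sets gave -0.71, -0.65, -0.39 and -0.34 with AP21967, and -0.55, -0.02, -0.53 and -0.45 without it. Most of these were thus also lower with R5020 when the inducer was left out. Among 11 ERBB receptors and ligands ERBB3 was lower (-0.78) and the ligand HBEGF, at 0.57, stayed within 1.5 fold.

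WNT and NOTCH genes were also mixed, with 4 higher and 3 lower of 25. The NOTCH ligand JAG1 was at 6.37, 6.57, 6.75 and 8.53 (difference 1.77), the WNT effector LEF1 at 8.12, 8.37, 8.24 and 9.79 (difference 1.55), the WNT receptor gene FZD1 had a difference of 1.49 and NOTCH2 of 0.74. LEF1 gave only 0.08 and 0.32 on its dimmer probe sets. NOTCH3 (-0.71), TCF7L2 (-0.78), a partner of beta-catenin, and WNT5A (-0.94) were lower. Of 20 TGF-beta and BMP genes, TGFBR3 (1.07) and ACVR1 (0.71), both receptors, were higher and the decoy receptor BAMBI (-0.90) was lower. Secreted factors included FGF18 (0.99) and PDGFA (0.89), which were higher, and EDN1 (-0.75), which was lower, of 22 compared. The other FGF18 probe sets gave 1.18, 0.75, 0.28 and, on the dimmest, -0.19.

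In metabolism, 5 of 30 hypoxia and glycolysis genes were higher and 0 lower, with a median of 0.11. Besides NDRG1 these were P4HA2 (1.09), which hydroxylates collagen, the regulators of glycolytic flux PFKFB4 (0.96) and PFKFB3 (0.86), and hexokinase 2, HK2 (0.63). Of 19 genes for PDK kinases, lipolysis and fatty acid oxidation, PDK4, the lipase gene LIPE (0.98) and CPT2 (0.65) were higher and ACADM (-0.72), a dehydrogenase of fatty acid oxidation, was lower. Amino acid transport and ATF4 target genes had 5 higher, led by CHAC1 (1.15), which degrades glutathione, and CEBPG (0.98), and 1 lower, the serine synthesis gene PSPH (-0.90, and 0.08 on its second probe set), of 23. Of 19 genes of the unfolded protein response, DNAJC3 (0.69), MANF (0.65) and DNAJB9 (0.64) were higher and XBP1 lower. AMD1 (1.14) and MAT2A (0.67), of polyamine and methionine metabolism, were the 2 higher genes of 17. In 20 genes of cholesterol and fatty acid synthesis ELOVL5 (0.64) was higher and INSIG1 (-0.65) and INSIG2 (-0.64), which hold back sterol synthesis, were lower.

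Cytoskeletal genes were higher in 6 of 25 cases and lower in 0. MAP1A was at 8.51, 8.39, 8.56 and 10.57, and MTSS1, an actin-binding scaffold, at 8.62, 8.82, 8.85 and 10.68 (difference 1.83). MTCL1 (1.57), SYBU (0.98), TUBB2A (0.73) and MAP1B (0.61) completed them. Of these, SYBU also had 0.51 without AP21967, and MAP1A gave 0.00 and 0.07 on its 2 dimmer probe sets. Ion channels and transporters had 3 higher genes, KCNG1, CA12 and KCNMA1 (0.74), and 1 lower, the calcium pump gene ATP2B4 (-0.87), of 21. Of 19 genes for tissue factor, serpins and proteolysis, F3 and the urokinase receptor gene PLAUR (0.74) were higher. Cell adhesion and junction genes had a median of -0.23, with AMIGO2 and CLDN1 (-0.78), a tight junction protein, lower and none higher of 30.

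Cell cycle genes were compared in 3 lists. None of 30 DNA replication genes was past it in either direction (lowest -0.37, highest 0.33). Of 27 mitosis genes, TTK (-0.78) and CDK1 (-0.60), both kinases, were lower (7.41%), but the other CDK1 probe sets gave -0.08 and -0.06. Among 22 G1 cyclins, CDKs and inhibitors 4 were lower (18.2%, against 3.18% of all genes) and 0 higher. CCNG2, a cyclin that restrains the cycle, was at 11.23, 11.37, 11.35 and 10.05 (difference -1.30), and CDKN1B, the CDK inhibitor p27, at 9.72, 9.77, 9.90 and 8.92 (difference -0.98). The antiproliferative factor TOB1 (-0.91) and the S-phase cyclin gene CCNE2 (-0.89) were the other two. The 4 thus include 3 that hold the cycle back and 1 that drives it, and for CCNE2 a second probe set gave 0.17.

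Of 15 BCL2 family genes, the pro-apoptotic PMAIP1 (1.01) and BCL2L11 (0.61) were higher and none was lower. Of 23 ribosome biogenesis genes NOP16 (0.68) and NOP14 (0.64) were higher and none lower, and the median of 0.25 was above that of all genes. Immediate early and AP-1 genes had MYC higher and KLF10 (-1.03) and BHLHE40 (-0.67) lower, of 16. The 29 interferon-stimulated genes (-0.29 to 0.35) and the 10 keratins (-0.49 to 0.18) held none past 1.5 fold. Among heat shock proteins and receptor chaperones (16 genes) only FKBP5 was higher, among metallothioneins and zinc transporters (16) SLC39A14, and among S100 and epidermal differentiation genes (20) S100P (0.70), with none lower in these 3 lists. STC1, a secreted glycoprotein hormone followed in earlier work on this receptor, had a difference of -0.01, with 0.04 and -0.73 on its dimmer probe sets.

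**Figure D4:**
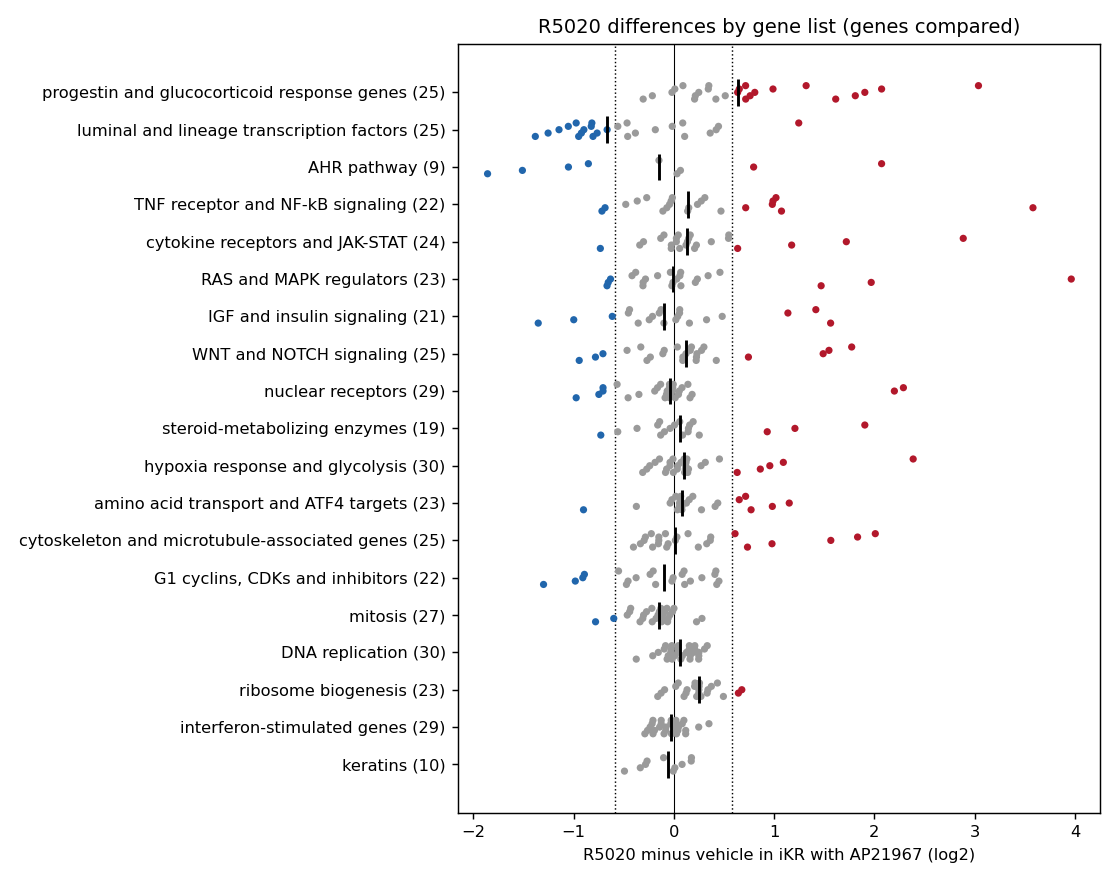
R5020 minus vehicle differences (log2, x axis) in iKR with AP21967 for the genes of 19 lists, 1 point per gene, with the number of genes compared beside each name and a black bar at the list's median. Dotted lines mark 1.5 fold (red higher, blue lower); the progestin and glucocorticoid list is shifted up (median 0.64) and the luminal and lineage factors down (median -0.66).

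Level and gene span of the 2 sets were as follows. On the vehicle array without AP21967, the 109 higher genes had a median level of 8.51 and the 53 lower genes of 9.85, against 8.88 over all genes compared. A gene can be lower by over 2.0 fold only where it starts well above the bottom of the range. Whether this bears on the medians was not tested. The median span of the gene in the genome was 48.3 kb for the higher and 66.2 kb for the lower genes, against 28.9 kb over all. Zinc finger genes with a ZNF symbol, a list chosen after the values were seen, made up 3 of the 328 genes higher by over 1.5 fold and 15 of the 344 lower ones, against 212 of 10830 (1.96%) over all. Past 2.0 fold they were 2 of the 109 (1.83%) and 3 of the 53 (5.66%).

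Other probe sets of the same genes mostly gave the same direction. Of the 109 higher genes, 44 had further probe sets, of which 68 had a mean level of 6 or more. Of these 68, 66 were higher too, 41 by over 1.5 fold, and 0 were lower by that much. Among the lower genes there were 30 such probe sets, of which 25 were lower and 16 by over 1.5 fold, and 0 higher by that much. Of the genes named by rule, 124 were past 1.5 fold, and 53 of them had a further probe set with a mean level of 6 or more. In 25 of the 53 no further probe set was past 1.5 fold in the same direction, though in PDGFA, MTSS1 and KCNMA1 a further probe set fell just short of it. At that cut the difference of the 25 genes rests on 1 probe set. They include TNS1 (-1.35, and -0.12 to 0.09 on 3 others), MAP1A, KCNG1, LEF1, ESR1, MTSS1 (0.33 to 0.58 on 3 others), LIPE (0.09), CCNE2, PSPH, PDGFA (0.58), ATP2B4 (-0.30 and -0.15), CYP1A2 (-0.32) and ERBB3 (-0.12). The others were NCOA2, IL6ST, RXRA (-0.44), KCNMA1 (0.58 and 0.11), PLAUR (0.36 and 0.21), STS (-0.16 to -0.03), NOTCH3 (-0.04), NOP16 (0.01 to 0.16), BHLHE40 (-0.11), CPT2 (0.38), ELOVL5 (0.31 and 0.20) and CDK1.

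The promoters of the response genes were searched for the letters of the hormone response element, using the RefSeq sequences (GRCh38.p14) of 250 bases before to 50 after each start. The full palindrome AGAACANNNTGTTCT was found in 0 of the promoters of 81 higher, 43 lower and 8705 genes in all that had a sequence. The half-site AGAACA, read on both strands (TGTTCT on the other), was found in a promoter of 18 of 81 higher genes (22.2%), of 8 of 43 lower genes (18.6%) and of 1222 of 8705 genes in all (14.04%). Per promoter, since a gene can have several, it was found in 14.8% of 149, 12.3% of 81 and 10.7% of 12884. The core ACANNNTGT was in 4.94%, 11.6% and 5.17% of the genes. The AHR-binding core GCGTG was in 67.9% of the higher, 46.5% of the lower and 55.3% of all genes. Sites further from the start were not searched, and a part for AHR in the lower genes was not tested. These letters are short and a match is a description, not a binding site, and most receptor binding is known to lie outside promoters.

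To show what such matches look like, the stretches before the start of 7 named response genes follow 5′ to 3′ on the strand of the gene, with the half-site in capitals, the 4 higher genes first. TNS1, with a half-site 33 bases before its start, is not printed. Nor is another HDAC9 stretch, whose half-site lies 102 or 63 bases before other starts of that gene. ESRRG is from chr1:217090569-217090622 (minus strand, half-site beginning 24 bases before the start), PDK4 from chr7:95596727-95596766 (minus, 246 bases), RASSF2 from chr20:4815176-4815241 (minus, 64 bases) and LEF1 from chr4:108166302-108166341 (minus, 10 bases). The lower genes are KLF5 from chr13:73054919-73054975 (plus, 27 bases), HDAC9 from chr7:18509223-18509269 (plus, 17 bases) and GRAMD1C from chr3:113897361-113897426 (plus, 109 bases).
ESRRG: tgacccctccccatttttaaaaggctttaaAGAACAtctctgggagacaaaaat
PDK4: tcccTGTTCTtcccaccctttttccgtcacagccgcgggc
RASSF2: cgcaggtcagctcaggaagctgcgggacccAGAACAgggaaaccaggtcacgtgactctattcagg
LEF1: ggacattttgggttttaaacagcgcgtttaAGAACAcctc
KLF5: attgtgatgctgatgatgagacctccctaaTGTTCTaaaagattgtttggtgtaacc
HDAC9: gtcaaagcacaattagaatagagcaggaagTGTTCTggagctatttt
GRAMD1C: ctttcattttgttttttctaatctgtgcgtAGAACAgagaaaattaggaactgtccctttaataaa

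The iWT line, with wild-type PR-B and the same treatments on 4 arrays of its own, was set beside the iKR line. The lines differed in PGR signal. With AP21967 and vehicle it was at 12.08 in iKR and 11.34 in iWT, and with both agents at 11.38 and 11.89. With vehicle and no AP21967 it was at 10.65 and 11.12. The paper reports equal receptor protein in both lines after AP21967. Whether the amount of receptor bears on the values below was not tested. Of the 109 genes higher in iKR, 108 had the same sign in iWT and 81 were past 1.5 fold there (74.3%, against 1.59% of all genes). Of the 53 lower genes, 51 had the same sign and 26 were past 1.5 fold (49.1%, against 1.02%). The median of the 109 was 1.34 in iKR and 0.85 in iWT, and of the 53 it was -1.17 and -0.56. Since these genes were chosen on the iKR difference, larger values in iKR are built into that choice.

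With other choices of genes the gap between the lines was narrower, though a choice on the iWT difference builds in larger values in iWT. Of the 55 genes higher by over 2.0 fold in iWT (0.508% of all), 28 had the larger difference in iKR, with medians of 1.55 in iKR and 1.38 in iWT, and of the 11 lower ones (0.102%) 6 did (-1.34 and -1.08). Chosen on the mean of both lines, 72 genes were higher, 50 of them more so in iKR (medians 1.56 and 1.27), and 17 were lower, 15 of them more so in iKR (-1.38 and -0.89). With 1 array per condition the difference between the receptors was not tested.

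Named genes showed every degree of likeness. FKBP5 (3.04 in iKR and 2.95 in iWT), TIPARP (2.07 and 2.02), KCNG1 (2.23 and 2.11) RASSF2 (1.97 and 1.86) and RGS2 (1.47 and 1.55) were close, and IL20RA (2.89 and 3.45) and PMAIP1 (1.01 and 1.70) were larger in iWT. RASGRP1 (3.96 and 2.17), NDRG1 (2.39 and 1.27), PDK4 (2.25 and 1.28), MAP1A (2.01 and 0.71) and GPR161 (2.01 and 0.93) were larger in iKR. Among the lower genes, CYP1B1 was at -1.86 in iKR and -0.36 in iWT, GRAMD1C at -1.80 and -0.69, RP2 at -1.47 and -0.27, and FOXA1 at -1.25 and -0.76, while SOX2 (-1.38 and -1.23) and PIK3R3 (-0.998 and -1.08) were close. Of the lists, the luminal and lineage factors had a median of -0.66 in iKR and -0.39 in iWT with 13 and 8 genes lower, and the progestin and glucocorticoid list 0.64 and 0.54 with 13 and 11 higher.

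**Figure D5:**
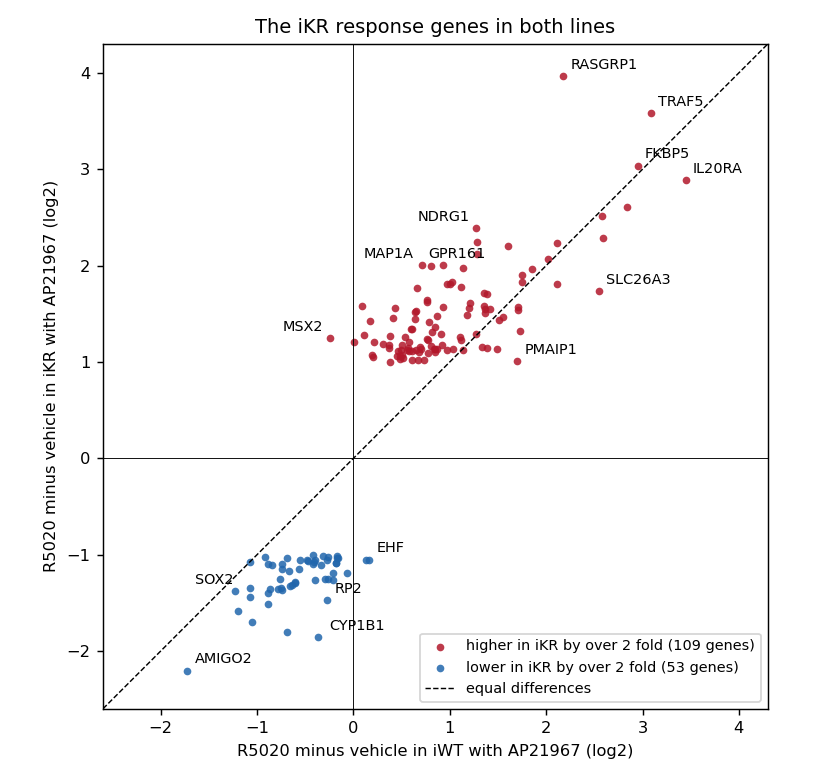
R5020 minus vehicle differences (log2) with AP21967 in iWT (x axis) and iKR (y axis) for the 109 higher and 53 lower genes of iKR, with a dashed line at equal differences. The genes were chosen on the y axis; 3 genes have the opposite sign in iWT, MSX2 (1.25 in iKR, -0.25 in iWT), EHF (-1.05 and 0.16) and MPZL2 (-1.06 and 0.13).

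The cut at 2.0 fold fell among genes of similar size. Just inside it were RNF8 (1.002), PMAIP1 (1.01) and KANK1 (1.02) on the higher side and SLC35A1 (-1.002), SPART (-1.01) and BCAR3 (-1.01) on the lower side. Just outside it were RCL1 (0.997), TNFAIP3 (0.989) and FGF18 (0.987), and BBS7 (-0.998), PIK3R3 (-0.998) and MFAP3L (-0.995).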

How the data were processed

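RNA from 10 conditions of T47D cells was hybridized to Affymetrix U133A 2.0 arrays, 1 array per condition. The authors normalized the raw files in R (affy, affyQCReport) using Robust Multi-array Average, and deposited log2 signals of 22277 probe sets, corrected for background and quantile-normalized. Of these, 19070 were paired with 1 gene through the platform annotation (symbols updated by gene ID), 1043 with several and 2164 with none listed. Each of the 11963 genes took its brightest probe set (mean over the 10 arrays), and 10830 genes with the highest iKR array at log2 6 or more were compared. Differences are between single arrays, so no test was run; the number of arrays limits the precision. Quantile normalization can hide a shift shared by most genes. A gene was judged against the pair without AP21967 (the 99th percentile of its differences in 10 level classes, and the distance outside the other 3 iKR arrays). Counts use 2.0 fold, lists 1.5 fold.

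The members and the 39 gene lists were chosen with earlier results of these data known. Named genes are PGR, genes followed up in the study (CHN2, also in the rule, has no value here), the 15 largest differences each way and up to 4 per list and direction; others were named after their values were seen. Alternatives were other fold limits, filters, probe sets, normalizations (cyclic loess by limma 3.58.1 in R 4.3.3) and reference arrays. Python 3.11.15, numpy 2.4.6, pandas 2.3.3, scipy 1.17.1 and matplotlib 3.10.9 were used.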

Additional observations from a re-analysis of the deposited data

Results flagged for a closer look

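Genes past 2.0 fold, or named genes past 1.5 fold, in iKR were set beside iWT, and smaller differences of opposite sign are not listed. For 7 such genes the R5020 difference (log2) with AP21967 had opposite signs in the iKR and iWT lines, on 1 array per condition. MSX2, a homeobox transcription factor, was at 1.25 in iKR and -0.25 in iWT, and LIPE, hormone-sensitive lipase, at 0.98 and -0.18. EHF, an epithelial ETS factor, was at -1.05 in iKR and 0.16 in iWT, and the adhesion gene MPZL2 at -1.06 and 0.13. The cyclin gene CCNE2 was at -0.89 and 0.40 on its brightest probe set, ACADM, of fatty acid oxidation, at -0.72 and 0.04, and PGR at -0.71 and 0.55. A second probe set gave 0.17 in iKR and 0.56 in iWT for CCNE2, -0.01 and 0.31 for MPZL2, and 0.09 and 0.22 for LIPE. The difference between the lines was not tested in any of them.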

How the results depend on the processing

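No paired analysis was possible because each condition has 1 array and the labels give every array the same replicate number. For the same reason no replicate could be left out. The main counts were 109 higher and 53 lower genes. The threshold moved them most. At 1.5 fold they were 328 and 344 (327 and 339 also outside the other 3 iKR arrays by more than the distance without AP21967), and at 3.0 fold 32 and 4 (32 and 4). Without _x_at and _s_at probe sets, with 7164 genes compared, 70 were higher, all 70 also outside the other arrays. With the uninduced R5020 difference subtracted, 80 genes were lower, of which 50 were among the 53. The other 33 alternative counts stayed within 1.5 times the main ones. Cyclic loess gave 105 higher and 61 lower and median centring 104 and 63. These include all 53 lower genes, and the median difference of all genes was 0.002 and 0.001 with them against 0.03. Without _x_at and _s_at probe sets FGF18 was at -0.19, RASAL2 at 0.016 and TNS1 at 0.092, the opposite of their signs on the brightest probe sets, and with the vehicle array without AP21967 as the reference PGR was at 0.73. The causes were not tested beyond the change of probe set or array. Of the other values of named genes, 886 moved by less than the spread of the differences without AP21967 and 206 by more. None of them changed sign in a gene past 1.5 fold in the main result, and genes within 1.5 fold were not checked for sign. Of the list medians 338 moved by less than that spread and 13 by more. Array signal near background limits the dim genes. Without a level filter the counts were 109 and 53, and at a mean of log2 7 or more they were 93 and 53.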
